A study of Mus musculus with 8 samples.

Results

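A set of 9 genes of vitamin A transport, vitamin A signalling and chemerin was followed through 1 experiment on mouse kidney cells. They were Rbp4, Ttr and Stra6, which carry retinol in blood and into cells, Crabp1, Crabp2 and Aldh1a1, which make and bind retinoic acid inside cells, the retinoic acid receptors Rara and Rarb, and Rarres2, the gene of chemerin. These 9 genes, of 20659 that had a probe on the arrays, were taken by name, with every non-control probe whose transcript accession belonged to one of them, which gave 11 probes (2 each for Rara and Rarb). The set was chosen by the measured difference between GW4064 and DMSO arrays, so that difference is described below and is not offered as a test. All 11 probes passed the filter on dim signals, Rbp4 only through its GW4064 arrays, so that all 9 genes were among the 14487 tested.

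RNA was measured in primary cultures of kidney proximal tubule cells from male C57/BJ mice aged 6 weeks. In serum-free DMEM, 4 samples labelled GW4064 received 1 uM GW4064 and 4 labelled DMSO received the vehicle, both for 24 h. GW4064 is a man-made compound that activates FXR, the bile acid receptor encoded by Nr1h4, and the comparison asked what it did to transcript levels. The cultures were grown from minced, trypsin-digested cortex, a pellet made up largely but not wholly of tubules, and nothing in the labels tells if the samples within a group are from different cultures or mice. P-values therefore measure the spread between these samples only, which may be technical.

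Vitamin A travels in blood as retinol bound to Rbp4, which is held in the circulation by Ttr. Retinol enters cells through receptors such as Stra6, is oxidised to retinal and then, by Aldh1a1 and its relatives, to retinoic acid, which Crabp1 and Crabp2 bind in the cytosol and which activates Rar proteins paired with Rxr proteins on DNA. In the kidney the proximal tubule takes up filtered Rbp4 with the endocytic receptors megalin (Lrp2) and cubilin (Cubn). Chemerin is a secreted protein of liver and fat that attracts immune cells and acts on fat cells once proteases have clipped its end, and its gene took the name retinoic acid receptor responder from an early study of skin.

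The start regions of Rbp4 and Crabp1, which were among the genes with large folds, and of Rarb, whose promoter is known for an element that binds retinoic acid receptors, are printed for reference. Each is 300 bases long, from 250 bases before the RefSeq transcript start to 50 bases within the transcript, in the direction of transcription, on mouse build GRCm38.p6. Rbp4 has 2 annotated starts. Capitals mark the motifs searched for: TATAAA in Rbp4 and direct repeats with a spacer of 5 bases in Rarb.
Rbp4 at chr19:38125272-38125571, minus strand: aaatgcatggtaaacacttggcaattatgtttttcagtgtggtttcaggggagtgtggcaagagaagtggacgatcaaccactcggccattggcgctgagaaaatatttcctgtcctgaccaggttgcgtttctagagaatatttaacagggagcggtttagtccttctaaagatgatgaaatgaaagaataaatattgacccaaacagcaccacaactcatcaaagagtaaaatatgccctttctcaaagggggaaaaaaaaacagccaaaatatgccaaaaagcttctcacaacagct
Rbp4 at chr19:38124762-38125061, minus strand: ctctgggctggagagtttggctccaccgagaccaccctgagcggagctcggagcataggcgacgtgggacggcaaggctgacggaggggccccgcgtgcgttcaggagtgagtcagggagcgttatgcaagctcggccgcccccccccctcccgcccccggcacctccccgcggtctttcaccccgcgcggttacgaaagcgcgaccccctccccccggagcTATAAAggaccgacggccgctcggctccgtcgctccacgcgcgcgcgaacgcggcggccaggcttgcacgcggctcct
Crabp1 at chr9:54764498-54764797, plus strand: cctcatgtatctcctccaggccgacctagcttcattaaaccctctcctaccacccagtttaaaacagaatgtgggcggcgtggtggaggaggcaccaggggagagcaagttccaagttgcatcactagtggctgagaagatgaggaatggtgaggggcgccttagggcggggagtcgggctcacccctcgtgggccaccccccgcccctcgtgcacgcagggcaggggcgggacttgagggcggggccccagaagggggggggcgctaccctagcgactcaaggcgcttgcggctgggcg
Rarb at chr14:16575427-16575726, minus strand: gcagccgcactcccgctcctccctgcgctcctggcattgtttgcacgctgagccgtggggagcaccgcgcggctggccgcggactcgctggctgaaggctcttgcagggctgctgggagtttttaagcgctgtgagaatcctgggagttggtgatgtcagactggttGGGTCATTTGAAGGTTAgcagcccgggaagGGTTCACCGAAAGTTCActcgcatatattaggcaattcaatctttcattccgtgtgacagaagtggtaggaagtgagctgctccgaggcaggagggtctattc

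The 2 Rbp4 starts differed in base composition. The window at chr19:38125272-38125571 had 40.7% G or C and 5 CpG pairs, while that at chr19:38124762-38125061 had 72.0% and 40 CpG pairs, against medians of 52.7% and 7 over 32851 RefSeq windows. The GC-rich one held TATAAA 28 to 23 bases before the start, a word found on either strand in 13.6% of windows. The Crabp1 window had 65.0% G or C and 17 CpG pairs, and no searched motif.

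Motifs were searched on both strands of 14 windows, which covered 6 of the 9 genes. They were the half-site AGGTCA, inverted repeats of it with a spacer of 1 base (the kind of element FXR binds with Rxr), direct repeats of it with spacers of 1, 2 and 5 bases and of AGTTCA with a spacer of 5 (kinds that Rar and Rxr bind), and TATAAA. In the repeats up to 2 mismatches were allowed, and the AGGTCA half-site can lie within an AGGTCA repeat. The Rarb window held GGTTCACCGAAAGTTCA, 53 to 37 bases before the start, a direct repeat of AGTTCA with 1 mismatch, which 0.149% of all windows match as closely. A direct repeat of AGGTCA with 2 mismatches, GGGTCATTTGAAGGTTA, lay 83 to 67 bases before the same start, and 2.79% of windows hold one. A Rara window held the AGGTCA half-site alone (16.3% of windows), and no window of the 6 genes held an inverted repeat, which 1.14% of windows do. The 6 genes did not include Rarres2, Crabp2 or Ttr, so nothing is said of their start regions. These matches are letters in a window, and no binding was measured.

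Signals are given per array as a percentage of that array's 75th percentile of spot signal, which puts the 8 arrays on 1 scale but does not rank one gene against another, since probes differ in brightness. Folds and log2 fold changes are GW4064 over DMSO, with n = 4 arrays per group. Their standard errors (SE) are from limma, a linear model fitted to all 14487 genes. A gene passed the threshold when its p, adjusted by the Benjamini-Hochberg method over all of them, was under 0.05. For the second probes of Rara and Rarb the SE is from the same model fitted to all 24735 kept probes. The share of probes well above background ran from 61.5% to 65.8% over the arrays, and the 75th percentile averaged 1412 ± 207 units in GW4064 and 1626 ± 187 in DMSO (SD, n = 4 each). The FXR target Slc51a, a bile acid exporter, was 120.6-fold higher with GW4064, and Nr1h4 itself was 1.37-fold lower. The arrays lay on 2 slides, each with 2 GW4064 and 2 DMSO samples. GW4064 samples took places 3 and 4 and DMSO samples places 1 and 2 of both slides, so place and treatment cannot be told apart.

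Of the 9 genes, 5 passed the threshold upward (Rbp4, Crabp1, Rarres2, Stra6 and Rara), against 11.8% of all genes tested, and 2 downward (Crabp2 and Rarb), against 8.95%. Ttr and Aldh1a1 did not pass. The median log2 fold change of the 9 was 0.36, against 0.01 over all genes. Over both directions 20.8% of all genes passed. The groups did not overlap for the 7 genes that passed, against 26.1% of all genes tested. Nothing is read from these counts, since the same values chose the set.

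Rbp4, the retinol carrier of plasma and a lipocalin, was near the detection limit in control cells. Its signal was 17.5, 16.9, 18.3 and 16.3% of the 75th percentile on the 4 GW4064 arrays, against 1.30, 1.02, 0.951 and 1.99% on the DMSO arrays. The groups lay far apart, and the GW4064 arrays agreed closely among themselves. Rbp4 was 13.7-fold higher with GW4064 (log2 fold change 3.78 ± 0.21 SE), but while 4 of 4 GW4064 arrays had it well above background, 1 of 4 DMSO arrays did, so the size of the fold rests on a control level that was barely measured. In unscaled units the signal was 195 to 297 with GW4064 and 14.7 to 37.8 with DMSO. The coefficient of variation was 5.00% with GW4064 and 35.9% with DMSO. With a background correction that adds an offset of 50 units (normexp, with the local background of outlier spots replaced, a setting chosen after seeing the data), the log2 fold change was 1.93, 3.82-fold. With all local backgrounds kept, as planned, it was 1.15 ± 0.67 SE and did not pass.

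Ttr, which binds Rbp4 and thyroid hormone in blood, was also dim, on arrays of both groups. Its signal was 1.82, 1.69, 1.37 and 2.56% on the GW4064 arrays, against 2.27, 2.06, 1.55 and 2.13% on the DMSO arrays. The groups overlapped, and 3 of 4 arrays in each had Ttr well above background. The log2 fold change was -0.13 ± 0.19 SE, with a 95% interval of -0.57 to 0.31. A true change anywhere within that interval remains possible, and it could have gone undetected with these arrays.

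Stra6, the membrane receptor that takes retinol from Rbp4, stood at 88.6, 87.9, 81.0 and 101% on the GW4064 arrays, against 54.0, 49.8, 54.9 and 53.2% on the DMSO arrays. Every GW4064 array was above every DMSO array. Stra6 was 1.69-fold higher (0.75 ± 0.07 SE).

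**Figure D1:**
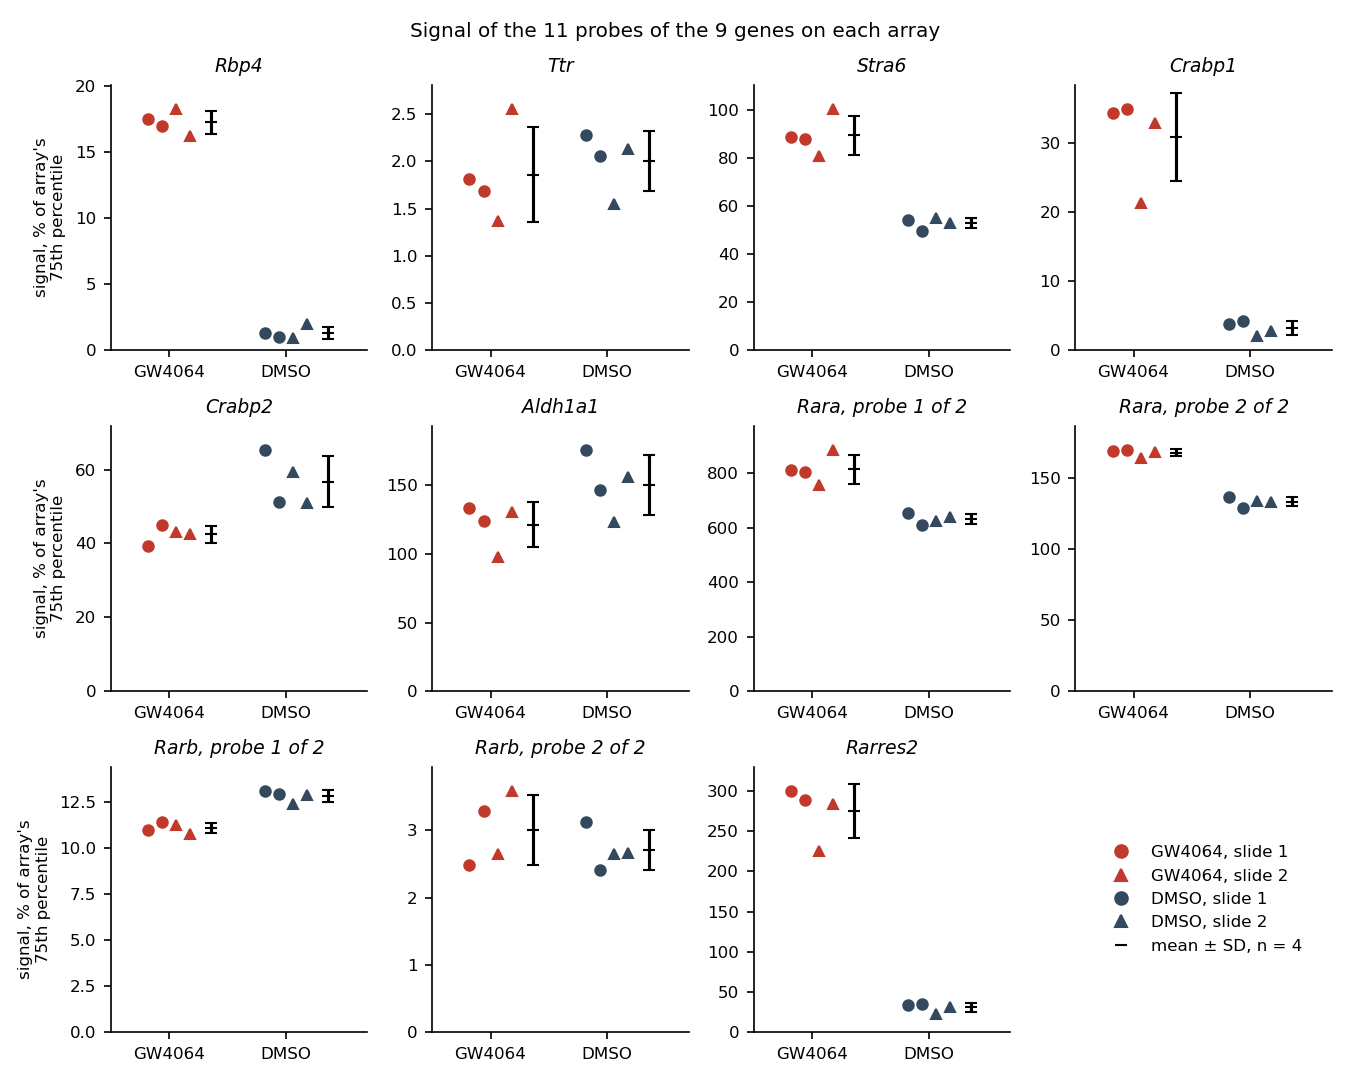
Signal of each of the 11 probes on the 8 arrays, as a percentage of the array's 75th percentile, with GW4064 left and DMSO right, circles for slide 1, triangles for slide 2 and bars for the mean ± SD of 4 arrays. Rbp4, Crabp1 and Rarres2 show wide gaps between the groups, Stra6 and Rara narrower ones, Crabp2 and the first Rarb probe lie lower with GW4064, and Ttr, Aldh1a1 and the second Rarb probe overlap.

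Of the genes that act inside the cell, the transcripts of the 2 cytosolic retinoic acid binding proteins moved in opposite directions. Crabp1, which holds retinoic acid in the cytosol and is linked to its breakdown, had 34.3, 34.9, 21.3 and 32.8% on the GW4064 arrays, against 3.84, 4.20, 2.12 and 2.77% on the DMSO arrays. The groups were far apart, although replicate 3 was the lowest array of both. Crabp1 was 9.71-fold higher (3.28 ± 0.24 SE) and well above background on all 8 arrays. With the same normexp settings the log2 fold change was 2.23, and 1.51 ± 0.61 SE, not past the threshold, with all local backgrounds kept.

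Crabp2, which carries retinoic acid to its receptors in the nucleus, had 39.4, 44.9, 43.1 and 42.6% on the GW4064 arrays, against 65.4, 51.2, 59.2 and 51.1% on the DMSO arrays. All GW4064 arrays were below all DMSO arrays, by a margin much smaller than that of Crabp1. Crabp2 was 1.33-fold lower with GW4064 (log2 fold change -0.41 ± 0.09 SE).

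Aldh1a1, which oxidises retinal to retinoic acid, had 133, 124, 97.4 and 131% on the GW4064 arrays, against 176, 146, 123 and 156% on the DMSO arrays. The means lay in the same direction as those of Crabp2, but DMSO replicate 3 fell within the GW4064 range. The log2 fold change was -0.31 ± 0.13 SE and did not pass the threshold.

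Of the receptors, Rara was measured by 2 probes that went the same way. The brighter had 812, 805, 756 and 887% on the GW4064 arrays, against 653, 612, 626 and 640% on the DMSO arrays. The other had 169.5, 170.3, 164.6 and 168.6% on the GW4064 arrays, against 137, 129, 134 and 133% on the DMSO arrays. Neither probe overlapped between the groups, and they gave 1.29-fold (0.36 ± 0.05 SE) and 1.26-fold (0.33 ± 0.04 SE) higher Rara with GW4064.

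The 2 probes of Rarb, both assigned to the same transcript, disagreed. The brighter had 10.96, 11.4, 11.2 and 10.8% on the GW4064 arrays, against 13.1, 12.9, 12.4 and 12.9% on the DMSO arrays. It was 1.16-fold lower with GW4064 (-0.21 ± 0.04 SE) without overlap. The dimmer had 2.49, 3.29, 2.65 and 3.58% on the GW4064 arrays, against 3.12, 2.40, 2.64 and 2.66% on the DMSO arrays, which overlapped (0.14 ± 0.13 SE). The mean of both probes gave a log2 fold change of -0.03 and no call, so the direction of Rarb depends on the probe.

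Rarres2 encodes the chemerin precursor. Its signal was 300.0, 289, 225 and 284% on the GW4064 arrays, against 33.9, 35.7, 22.7 and 31.6% on the DMSO arrays. The lowest GW4064 array was several times above the highest DMSO array, and replicate 3 was again the lowest of both groups. Rarres2 was 8.94-fold higher (3.16 ± 0.15 SE). All 8 arrays had it well above background, and with the normexp offset it was 7.87-fold higher.

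**Figure D2:**
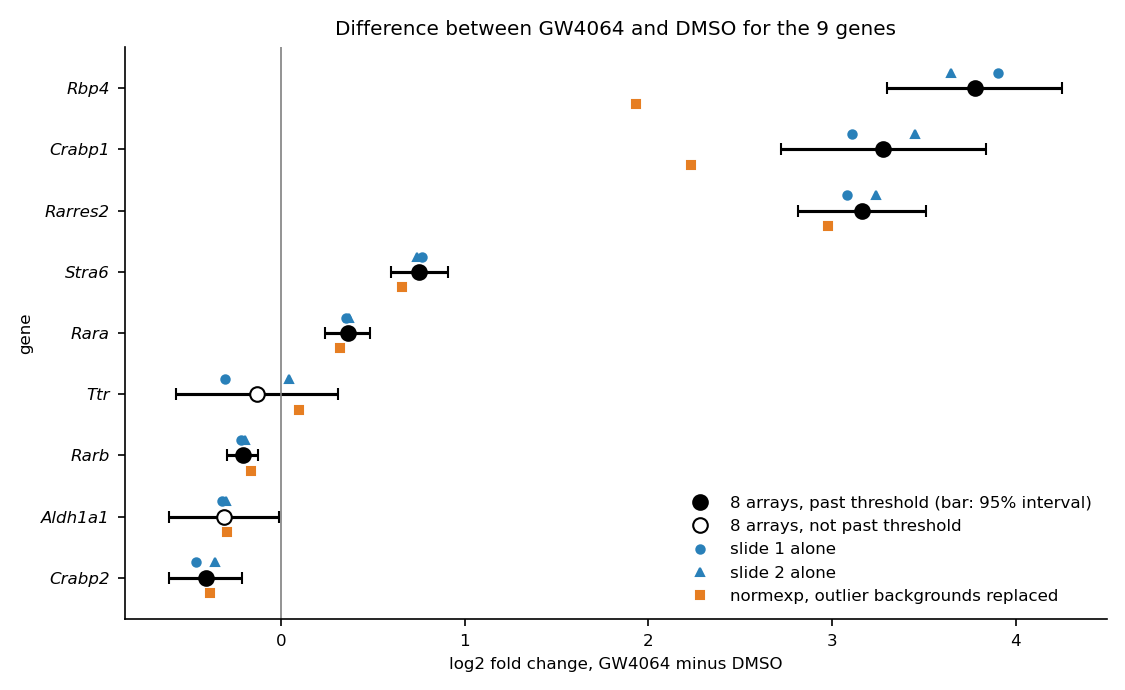
Log2 fold change of each gene, GW4064 minus DMSO, on the horizontal axis, with 95% intervals (black bars), filled for genes past the threshold and open for Ttr and Aldh1a1, beside the value from each slide alone (blue) and with the same normexp correction (orange). With normexp Rbp4 and Crabp1 stand at 1.93 and 2.23, and between the slides Ttr (-0.30 on slide 1, 0.04 on slide 2) and Crabp1 (3.11 and 3.45) differ by the most.

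Whether the treatment differed in effect between the slides was a comparison that had no part in the choice of the genes. The Rbp4 difference was 3.90 on slide 1 and 3.65 on slide 2 (log2), that of Crabp1 3.11 and 3.45, and that of Rarres2 3.08 and 3.24. The treatment-by-slide term in limma gave an adjusted p of 0.9915 or more for each of the 9 genes. The slide 1 minus slide 2 difference was 0.25 ± 0.46 SE for Rbp4 and -0.34 ± 0.30 SE for Crabp1. Across all 14487 genes 0 passed that term in limma (0%), with 543 (3.75%) at an unadjusted p under 0.05, and 0 passed in the quantile-normalized or the trended robust fit. With 2 arrays per group on a slide, differences of the size of these errors were not detectable, and larger ones could be missed.

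Within a group, some of the 9 genes shared their ups and downs from array to array. Replicate 3 was lowest in both groups for Crabp1, Rarres2, Aldh1a1 and Ttr. After removal of the group means, Pearson's r over the 8 arrays was 0.95 for Crabp1 with Rarres2 and 0.94 for Stra6 with Rara, but -0.07 for Rbp4 with Crabp1 and 0.23 for Rbp4 with Rarres2. These describe 8 arrays on 2 slides, in which the genes of a pair were read from the same RNA. Whether replicate numbers pair the samples is not known.

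**Figure D3:**
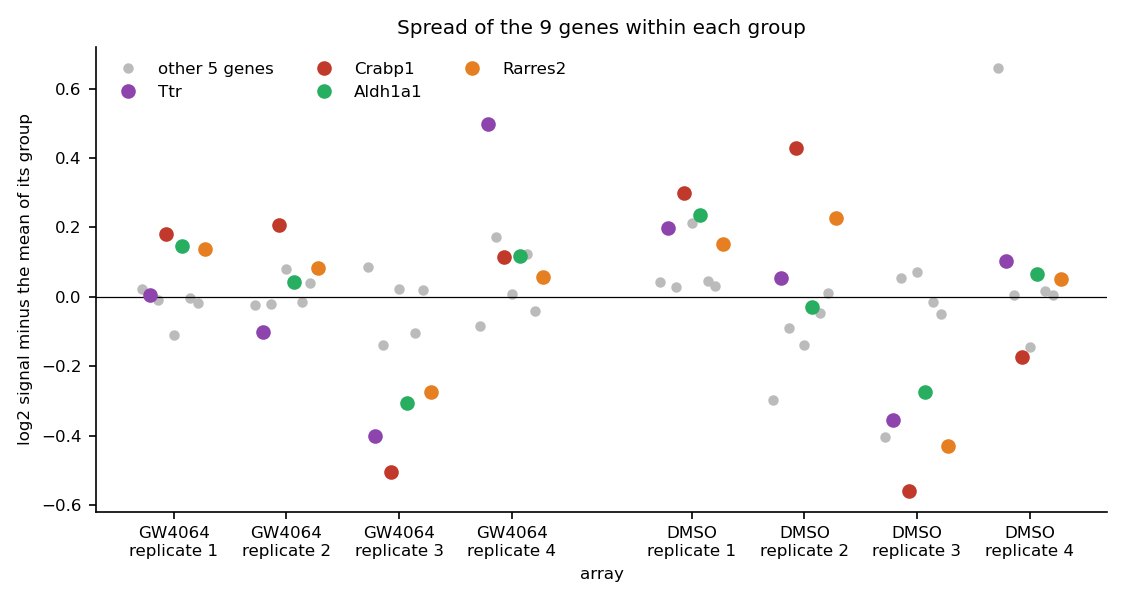
Log2 signal of each of the 9 genes minus the mean of its own group, for the 4 GW4064 and the 4 DMSO arrays. Crabp1, Rarres2, Aldh1a1 and Ttr (coloured) lie at their lowest on replicate 3 of both groups, and the high grey point on DMSO replicate 4 is Rbp4.

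Genes whose log2 signals followed a gene of the set most closely over the 8 arrays were looked up as the 3 with the highest r. For Rbp4 these were Zfp239 (r = 0.997), Gldc (0.994) and Pla1a (0.993), with log2 fold changes of 0.49, 1.09 and 0.84. For Rarres2 they were Gpx1 (0.999), Spp2 (0.998) and Kmo (0.998), at 0.97, 2.79 and 2.22. Spp2 (0.996) was also among the 3 for Crabp1, with Ascc1 (0.997) and Tkfc (0.996). Where the groups of a gene lay apart, a high r is set in large part by that step, so a likeness in size of change is not implied. For Stra6 the closest was Dlgap3 (0.995), for Rara Slc44a1 (0.992) and then Stra6 (0.99), for Rarb Sestd1 (0.99) and for Crabp2 Kcnj4 (0.989). For Aldh1a1 it was Nmur2 (0.981) and for Ttr the lipocalin C8g (0.972). After removal of the group means the r of these pairs was still 0.968 and 0.97. Those values thus rest mainly on variation within the groups.

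The nearest gene with a probe on either side of each of the 9 was also read, and the largest difference among those tested was a log2 fold change of -0.41, in B4galt6 beside Ttr. Beside Crabp1, Wdr61 and Ireb2 had log2 fold changes of -0.08 ± 0.05 and -0.07 ± 0.04 SE and did not pass the threshold. Beside Rarres2, Lrrc61 was higher with GW4064 by 0.16 ± 0.04 SE (adjusted p = 0.026 in limma), and Gm5111 was well above background on 0 of 8 arrays. Beside Rbp4, 1 of 8 arrays had Ffar4 well above background and 0 had Pde6c, so neither was tested. Among the other neighbours Nes, next to Crabp2, was higher by 0.37 ± 0.05 SE, and Top2b, next to Rarb, was lower (-0.17 ± 0.04 SE).

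Beyond the 9 genes, 5 lists of the retinoid and chemerin pathways held 101 genes, of which 79 were tested. Of these 15 were higher with GW4064, 9 lower and 55 did not pass, so 30.4% passed, against 20.8% of all genes. The median log2 fold change of the 79 was 0.02, against 0.01 for all genes. The lists were drawn up with earlier results of these data known, so nothing is read from their shares, here or below.

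Of 9 genes of retinoid uptake and of cellular carriers tested, 4 were higher and 0 lower, against 11.8% and 8.95% of all genes, and the median log2 fold change was 0.19. Stra6l, a membrane receptor for Rbp4 related to Stra6, had 29.9, 29.7, 29.7 and 31.6% on the GW4064 arrays, against 15.5, 14.6, 12.3 and 13.6% on the DMSO arrays. It was 2.17-fold higher (1.12 ± 0.07 SE, adjusted p = 2.83e-05 in limma), with no overlap. Cubn was 2.22-fold and Lrp2 1.24-fold higher, as was Scarb1, a lipoprotein receptor that also takes up carotenoids, by 1.33-fold. Rbp3 (0.17 ± 0.14 SE), Fabp5 (0.19 ± 0.08 SE), Lpl and Cd36 did not pass, and Rbp2, Rbp7 and Rlbp1 were well above background on 0 of 8 arrays.

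Among 27 enzymes of retinoid metabolism tested, 6 were higher and 4 lower, 37% in all, against 20.8% of all genes. Dhrs3, which reduces retinal back to retinol, was 1.55-fold higher (0.63 ± 0.05 SE, adjusted p = 5.36e-05 in limma), at 1284 ± 16.7% with GW4064 and 828 ± 45.8% with DMSO (SD, n = 4 each). The retinal dehydrogenases split, as Aldh1a3 (1.58-fold) and Aldh8a1 (1.42-fold) were higher and Aldh1a2 (1.23-fold) was lower. The alcohol dehydrogenases Adh7 (1.82-fold) and Adh1 also parted, with Adh1 1.30-fold lower. Adh7 was dim, at 6.23, 2.84, 3.81 and 2.89% on the GW4064 arrays and 1.80 to 2.20% on the DMSO arrays (0.86 ± 0.23 SE). Its fold thus leans on GW4064 replicate 1. Rdh5 and Cyp1b1 were 1.24-fold and 1.33-fold higher, and Rdh11 and Rdh13 were 1.20-fold and 1.13-fold lower. Cyp26a1, which degrades retinoic acid, did not pass (-0.22 ± 0.08 SE), while Cyp26b1 and Lrat, the enzyme that stores retinol as ester, were well above background on 1 of 8 arrays each and were not tested.

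**Figure D4:**
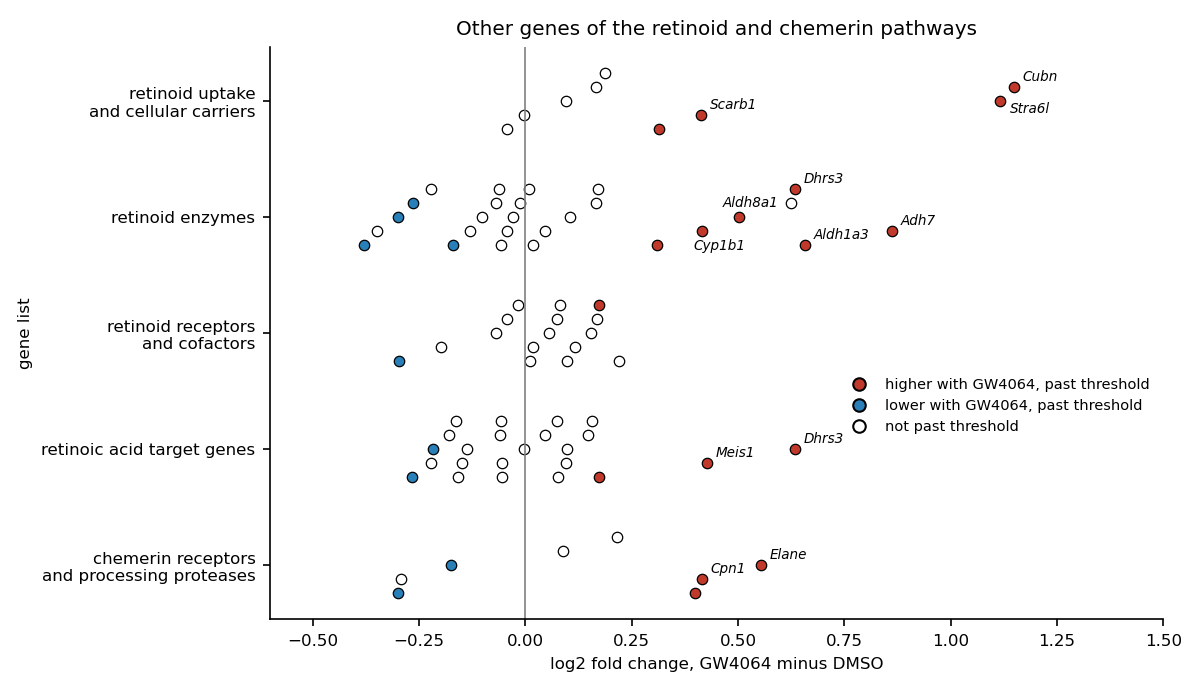
Log2 fold change, GW4064 minus DMSO, of the 79 tested genes of the 5 pathway lists, 1 row per list, with genes spread vertically for legibility, red for genes past the threshold upward, blue downward and open for the rest. Dhrs3 and other genes that 2 lists hold appear in both, and all points lie between -0.38 and 1.15.

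Of 16 receptor and cofactor genes, 1 was higher and 1 lower, 12.5% against 20.8% of all genes. The corepressor Nrip1 was 1.13-fold higher and the orphan receptor Nr2f2 was 1.23-fold lower. Rarg (0.15 ± 0.06 SE) and the partners Rxra (0.17 ± 0.08), Rxrb (0.01 ± 0.05) and Rxrg (0.10 ± 0.09) did not pass. Of 23 genes known as retinoic acid targets in other cells, 3 were higher and 2 lower, with a median log2 fold change of -0.05. That is 21.7% past the threshold, close to the 20.8% of all genes, and is no result about the list. Besides Dhrs3 and Nrip1, the homeobox gene Meis1 was 1.34-fold higher, and Hoxa3 and Lamb1 were 1.20-fold and 1.16-fold lower.

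Of the chemerin partners, 3 of 8 tested were higher and 2 lower, against 11.8% and 8.95% of all genes. The chemerin receptor Gpr1 was 1.23-fold lower (-0.30 ± 0.09 SE, adjusted p = 0.0433 in limma) with overlapping groups. The signalling receptor Cmklr1 was not tested, with 0 of 8 arrays well above background, while Ccrl2, which binds chemerin without signalling, did not pass (-0.29 ± 0.28 SE). Of the proteases that process chemerin, Elane, which can activate it, was 1.47-fold higher, and so were the carboxypeptidases Cpn1 and Cpb2, which trim its end (1.33-fold and 1.32-fold). Ctsl was 1.13-fold lower. Klk7, Plg, Cma1 and Ctsg were well above background on 0 of 8 arrays.

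Rbp4 and Rarres2 are also made by liver and fat cells, and the cultures may hold cells other than proximal tubule. In such bulk RNA, fewer cells of a type and less RNA per cell cannot be told apart. Of the hepatocyte markers 4 of 7 tested were higher with GW4064 and 0 lower, against 11.8% and 8.95% of all genes. The list's summed signal was 8.18 to 9.41 times the 75th percentile on GW4064 arrays, against 4.71 to 5.96 on DMSO arrays. Serpina1a, 3.02-fold higher, led them, whereas Alb, Apoa1, Ahsg, Cps1 and Hamp were well above background on 0 of 8 arrays. Of the adipocyte markers 0 of 2 tested passed, the sums were 0.509 to 0.632 with GW4064 and 0.498 to 0.574 with DMSO, and Adipoq, Lep, Plin1 and Cfd were well above background on 0 of 8 arrays.

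Other markers moved with the treatment as well, and their counts stand against the same shares, 11.8% higher and 8.95% lower. Of 20 proximal tubule markers, Lrp2 and Cubn among them, all were detected, 14 were higher and 2 lower, and their sum was 198 to 234 times the 75th percentile with GW4064 and 144 to 186 with DMSO. Slc13a1 was 5.74-fold higher, while the 2 lower markers, Kap and Cdh6, were 1.60-fold and 1.52-fold lower. Of the markers tested, 3 of 9 for leukocytes (sums 14.2 to 16.4 and 10.96 to 12.4 with GW4064 and DMSO), 3 of 7 for endothelium (6.00 to 6.74 and 5.20 to 6.12) and 3 of 9 for fibroblasts and pericytes (79.0 to 95.7 and 57.7 to 73.8) were higher, with 0 lower. Csf1r, Esam and Tagln led these by p-value at 1.68, 1.99 and 1.44-fold. Of those for podocytes and other nephron segments 0 of 9 were higher and 2 lower (8.78 to 10.1 and 8.55 to 10.3). Their part in the differences of the 9 genes was not tested.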

How the data were processed

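The deposited files of the 8 one-colour Agilent arrays give each spot's intensity as a processed signal from which, per the file headers, Feature Extraction 10.7.3.1 had taken the background. That software, as version 10.7, and limma appear in the submitters' processing notes. The authors also deposited log2 values for all arrays, whose normalization is not described, and these served as an alternative. The headers name build mm9, so only RefSeq promoter windows carry coordinates.

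Control and outlier spots were dropped and spots of 1 probe averaged, giving 39429 probes. Values were log2 signal minus the array's 75th percentile. Probes well above background on at least 4 of 8 arrays were kept (24735). Accessions were matched, without versions, to RefSeq symbols of GRCm38.p6 (27234 probes matched, 12195 not), and the brightest kept probe stood for each of 14487 genes. GW4064 and DMSO arrays were fitted in R 4.3.3 with limma 3.58.1 (lmFit, eBayes, Benjamini-Hochberg, threshold 0.05, no covariate). The fit was tested on simulated data. The number of arrays limits the precision.

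The 9 genes, the pathway lists and the marker lists were chosen from general knowledge with earlier results of these data known. The rule for named genes took all 9 genes, the 3 most alike genes and both neighbours. Any pathway gene could be named, first those past the threshold by p. Of each cell type up to 3 markers past the threshold were open to naming. Defining markers below background, and the lower proximal tubule markers, were named besides. The values of 1 list gene are not reported here. In 1 alternative, chosen after seeing the data, spots marked as background outliers received the array's median local background before normexp. Pairing was checked by correlating, over all genes, the deviations of same-numbered samples from their group means, which gave r of -0.13, -0.03, 0.19 and -0.02.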

Additional observations from a re-analysis of the deposited data

Results flagged for a closer look

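Among the 176 gene-and-group combinations of the 9 genes and the pathway genes, 10 held 1 array that stood far from the other 3 of its group, 5.68% of them, where chance alone gives about 5%. Values are log2 signals relative to the array's 75th percentile. Of the 9 genes only Crabp1 was among them, at -2.23 on GW4064 replicate 3, against -1.61 to -1.52 on the other GW4064 arrays, and all GW4064 arrays stayed above the DMSO arrays. Without that array the Crabp1 log2 fold change was 3.45.

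Of the pathway genes past the threshold, Stra6l was high on GW4064 replicate 4 (-1.66), Aldh1a2 high on GW4064 replicate 3 (2.69), Adh1 low on DMSO replicate 3 (3.50) and Meis1 high on GW4064 replicate 3 (-0.75). Of those that did not pass, Cd36 was high on DMSO replicate 1 (-4.55), Aldh1a7 low on DMSO replicate 3 (-0.16), Ncoa2 high on GW4064 replicate 4 (-0.40), Meis2 low on DMSO replicate 1 (-0.70) and Hoxa4 high on DMSO replicate 4 (-3.19).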

How the results depend on the processing

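Of 23 alternatives, 20 left the counts of called genes within 1.5 times of those reported, and no called value of the 9 genes changed sign in any. With normexp at an offset of 50 as planned, 119 genes passed, 1 of them among the 9 (Rarres2) and 2 among the pathway genes. There a spot of DMSO replicate 3 had a local background of 53526 units against an array median of 30, and with outlier backgrounds replaced 2156, 6 and 22 passed, Rarb no longer among them. Slide 1 alone gave 966, 4 and 7, and slide 2 alone 220, 3 and 3, with 2 arrays per group. Leaving out 1 array gave 2078 to 2825 genes, 7 of the 9 each time and 20 to 24 pathway genes. The log2 fold change then ranged from 3.64 to 3.99 for Rbp4, 3.09 to 3.45 for Crabp1 and 3.02 to 3.25 for Rarres2.

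The planned normexp setting gave log2 fold changes of 1.15 for Rbp4 and 1.51 for Crabp1, neither of which passed. A filter on all 8 arrays dropped Rbp4 and Ttr. With the replicate number as a block 2324 genes, 8 of the 9 and 19 pathway genes passed, and Aldh1a1 was then lower past the threshold (-0.31). The correlations of same-numbered samples over all genes were small, which does not exclude pairing by number. Ttr, never past the threshold, ran from -0.72 to 0.10. The slide-by-treatment count was 0 in all 3 fits.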

Other observations

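Rbp4 is a lipocalin, and of 6 other lipocalin genes tested 2 were higher with GW4064 and 0 lower, against 11.8% and 8.95% of all genes. Apom, which carries lipids in high-density lipoprotein, had 57.3 ± 6.42% of the 75th percentile with GW4064 and 14.4 ± 0.997% with DMSO (SD, n = 4 each), 3.97-fold higher (1.99 ± 0.09 SE, adjusted p = 4.28e-06 in limma) with no overlap. Ambp, the precursor of alpha-1-microglobulin, was 1.31-fold higher (0.39 ± 0.06 SE). Lcn2, Ptgds, Apod and C8g did not pass, with log2 fold changes between -0.06 and 0.07.

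Crabp1 and Crabp2 belong to the intracellular lipid-binding proteins, of which 7 others were tested, 1 higher and 1 lower, against the same shares. The higher one, Fabp6, passed the filter on dim signals only through its GW4064 arrays, so nothing is read from this count. Fabp6 is the ileal bile acid binding protein and a known FXR target. It was well above background on 4 of 4 GW4064 and 0 of 4 DMSO arrays. With its DMSO signals raised to the dimmest spot well above background on each array, Fabp6 was 61.4-fold higher with GW4064. That spot belongs to another probe, so the figure is rough and not a bound. Fabp7, the brain-type member, was 1.45-fold lower (-0.53 ± 0.08 SE, adjusted p = 0.00261 in limma), at 8.94 ± 0.663% with GW4064 and 13.0 ± 1.23% with DMSO (SD, n = 4 each). Fabp2, Fabp3, Fabp4 and Fabp5 did not pass, with log2 fold changes between 0.03 and 0.32.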
